A study of Mus musculus with 8 samples.

Results

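A set of 10 genes of acetylcholine signalling was followed in mouse lungs after treatment with vehicle or with mepenzolate, which blocks muscarinic receptors. They were the 5 muscarinic receptor genes (Chrm1 to Chrm5), choline acetyltransferase (Chat), acetylcholinesterase (Ache), butyrylcholinesterase (Bche), the high-affinity choline transporter (Slc5a7) and the vesicular acetylcholine transporter (Slc18a3). These 10 genes were named from the target of the drug and the handling of its competing transmitter, with earlier results of these data known. All 10 had a probe among the 19937 genes measured. Each gene had 1 probe with its symbol alone. The mice, whose strain and age are not given in the sources used here, were anaesthetised with chloral hydrate (500 mg/kg) for intratracheal dosing of mepenzolate in PBS, and the labels do not describe the vehicle dosing separately. RNA of lung tissue was taken at 7 h or 25 h. The groups were mepenzolate at 7 h, mepenzolate at 25 h, vehicle at 7 h and vehicle at 25 h, with 2 arrays in each and 8 in all. The dose of mepenzolate is not given in the sources used here, and nothing in the labels says that the paired arrays of each group are different mice. The tests therefore rest on variation among 8 samples, part of which may be technical. As a check of the tissue, 8 of 8 lung epithelial markers were above background, from Foxj1 (log2 8.09) to the surfactant gene Sftpc (13.52). The second mepenzolate array at 7 h stood apart, with low club cell markers (mean -0.56 relative to all arrays) and high liver markers (0.80). By summed log2 level its liver markers (11.85) were below those of the second vehicle array at 7 h (11.89). The 7 h differences are given with and without the second mepenzolate array.

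Acetylcholine is made from choline and acetyl-CoA by Chat, loaded into vesicles by the Slc18a3 product, split by cholinesterases and recovered as choline through the Slc5a7 product. In the lung it is released mainly by parasympathetic nerves, whose cell bodies lie in ganglia of the airway wall, while epithelial tuft cells and some lymphocytes can also make it. The M3 receptor, coupled to Gq and phospholipase C, contracts airway smooth muscle and drives gland secretion. The M2 receptor, coupled to Gi, lies on the same muscle, on nerve endings where it limits transmitter release, and on heart muscle. Mepenzolate blocks these receptors, so the genes here encode its targets and the supply of the transmitter that it displaces.

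The start regions of 4 of the genes are shown as sequence. Chat and Slc18a3 form a single nested locus, with Slc18a3 lying within Chat on the same strand of chromosome 14 and the gene starts 1059 bases apart, and Chrm2 and Ache are the members with an unadjusted p under 0.05 at 25 h. The sequences are the 250 bases before each start in RefSeq (GRCm38.p6), 5′ to 3′. Capitals mark GC boxes, the letters GGGCGG on either strand, counted with overlaps.
Chrm2, chr6:36387834-36388083, plus strand: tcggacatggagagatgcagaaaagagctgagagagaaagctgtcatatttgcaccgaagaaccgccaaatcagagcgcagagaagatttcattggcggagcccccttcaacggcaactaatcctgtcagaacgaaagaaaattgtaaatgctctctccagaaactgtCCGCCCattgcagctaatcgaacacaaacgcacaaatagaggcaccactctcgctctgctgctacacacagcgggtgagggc
Ache, chr5:137288004-137288253, plus strand: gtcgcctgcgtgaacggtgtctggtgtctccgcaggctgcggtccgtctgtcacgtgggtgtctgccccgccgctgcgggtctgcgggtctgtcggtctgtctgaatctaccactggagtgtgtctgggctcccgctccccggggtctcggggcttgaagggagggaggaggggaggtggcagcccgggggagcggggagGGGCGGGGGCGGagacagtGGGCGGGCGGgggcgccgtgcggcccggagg
Chat, chr14:32465910-32466159, minus strand: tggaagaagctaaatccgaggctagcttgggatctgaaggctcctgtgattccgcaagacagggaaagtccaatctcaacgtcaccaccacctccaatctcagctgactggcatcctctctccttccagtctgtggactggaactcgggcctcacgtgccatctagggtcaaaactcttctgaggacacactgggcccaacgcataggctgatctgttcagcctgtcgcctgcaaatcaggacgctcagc
Slc18a3, chr14:32464851-32465100, minus strand: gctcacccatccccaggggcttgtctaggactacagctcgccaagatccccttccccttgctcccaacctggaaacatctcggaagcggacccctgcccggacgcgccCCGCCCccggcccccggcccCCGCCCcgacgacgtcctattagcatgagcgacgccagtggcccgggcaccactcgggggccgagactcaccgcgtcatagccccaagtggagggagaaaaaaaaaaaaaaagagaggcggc
Ache held 4 GC boxes, Slc18a3 2, Chrm2 1 and Chat 0. Of the 9 members with an entry 5 held at least 1 (also Chrm4 and Bche), and 32.7% of 32851 start regions did. The G+C content was 73.6% for Ache, 66% for Slc18a3, 54.8% for Chat and 50% for Chrm2, against a median of 52.4% over all regions. These letters describe the regions, and the arrays do not measure binding to them.

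Levels were set against array background, read from 1027 olfactory receptor genes, which belong to sensory neurons of the nose. Their mean levels over the 8 arrays had a median of 4.45 and a 95th percentile of 6.22 on the log2 scale, and a gene above the latter was taken as above background, as were 69.8% of all genes. Probes differ in brightness, so the levels place each gene against background and do not rank the genes' RNA against each other. By this measure 6 of 10 members were above background, namely Chrm1, Chrm2, Chrm3, Chrm4, Bche and Slc18a3, and each was so on 8 of 8 arrays by that array's own 95th percentile. Chrm5, Chat, Ache and Slc5a7 were below it, on 0 of 8 arrays above. Nearest the limit were Chrm4, 0.40 above, and Ache, 0.20 below. With the 99th percentile as limit (7.03) 3 members stayed above (Chrm1, Chrm2 and Bche), and with the 95th percentile of 167 vomeronasal receptor genes (5.02) all 10 were above.

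**Figure D1:**
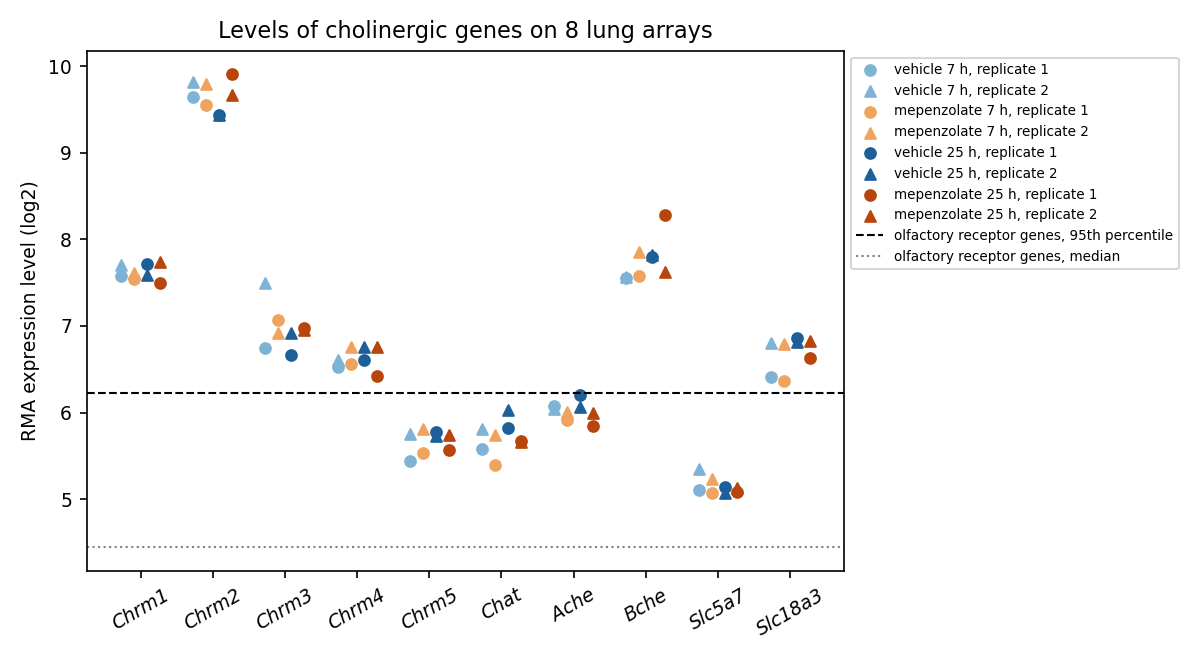
Log2 expression level (vertical axis) of the 10 genes on each of the 8 arrays; colour gives treatment and time, circles replicate 1 and triangles replicate 2. The dashed line is the 95th percentile (6.22) and the dotted line the median (4.45) of olfactory receptor genes; Chrm2 lies far above the dashed line, and Chrm5, Chat, Ache and Slc5a7 lie below it.

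Chrm2, the M2 receptor gene, had a mean log2 level of 9.66 (SD 0.17, n = 8), above 100% of olfactory receptor genes. At 25 h it read 9.90 and 9.67 in mepenzolate lungs and 9.44 and 9.43 in vehicle lungs. At 7 h it read 9.55 and 9.80 in mepenzolate lungs and 9.65 and 9.81 in vehicle lungs. The vehicle arrays at 25 h were the 2 lowest of the 8, and the mepenzolate arrays at 25 h overlapped with both groups at 7 h.

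Chrm1, the M1 receptor gene, varied least among the receptors above background, from 7.50 to 7.74 (mean 7.62, SD 0.088, n = 8). Chrm3, the M3 receptor gene, had a mean of 6.97 (SD 0.25, n = 8) and a spread within groups above that of 97.4% of all genes. Its vehicle arrays at 7 h read 6.74 and 7.50, and those at 25 h 6.67 and 6.92. Its mepenzolate arrays read 7.06 and 6.91 at 7 h and 6.97 and 6.95 at 25 h. The second vehicle array at 7 h was therefore high by itself, and the other 7 arrays lay between 6.67 and 7.06. Smooth muscle markers were also highest on that array (mean of 9 genes 0.17 relative to all arrays), and their part in the Chrm3 value was not tested.

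Chrm4, the M4 receptor gene, ranged from 6.42 to 6.76 (mean 6.63, SD 0.13, n = 8). Chrm5, the M5 receptor gene, ranged from 5.44 to 5.81 (mean 5.67, SD 0.14, n = 8). Its mean was above 86.9% of olfactory receptor genes but below the background limit.

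Of the genes that make and move acetylcholine, only Slc18a3 was above background, with a mean of 6.69 (SD 0.20, n = 8). Its vehicle arrays read 6.41 and 6.80 at 7 h and 6.87 and 6.82 at 25 h, and its mepenzolate arrays 6.37 and 6.79 at 7 h and 6.63 and 6.83 at 25 h. Chat, encoded at the same locus, had a mean of 5.72 (SD 0.19, n = 8). It read 5.68 and 5.67 in mepenzolate lungs and 5.82 and 6.03 in vehicle lungs at 25 h, against 5.40 and 5.74 in mepenzolate and 5.59 and 5.81 in vehicle lungs at 7 h. Slc5a7 ranged from 5.08 to 5.35 (mean 5.15, SD 0.095, n = 8), and stood above 73.9% of olfactory receptor genes.

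Of the enzymes that split acetylcholine, Ache had a mean of 6.02 (SD 0.11, n = 8), above 92.5% of olfactory receptor genes but below the background limit. Its mepenzolate arrays read 5.91 and 6.01 at 7 h and 5.85 and 5.999 at 25 h, and its vehicle arrays 6.08 and 6.05 at 7 h and 6.20 and 6.07 at 25 h. All 4 mepenzolate arrays were below all 4 vehicle arrays. Bche, which also circulates in plasma, had a mean of 7.76 (SD 0.24, n = 8). It read 8.28 and 7.62 in mepenzolate lungs and 7.80 and 7.82 in vehicle lungs at 25 h. At 7 h it read 7.58 and 7.86 in mepenzolate lungs and 7.55 and 7.57 in vehicle lungs. The first mepenzolate array at 25 h was high by itself, and its group spanned 0.66 log2 units.

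Markers of cells that could carry these genes were read the same way. Of 17 measured markers of peripheral neurons 7 were above background, and the ganglion transcription factor gene Phox2a (5.63), the neurofilament gene Nefl (5.47) and Vip (5.19), a peptide of parasympathetic fibres, were not. Stmn2 was the brightest of the list at 10.38. Of 12 tuft cell markers 7 were above background, while the taste channel gene Trpm5 (5.45) and Pou2f3 (6.09), the tuft cell regulator, were not. All 9 smooth muscle markers and all 19 cardiac markers were above background, from 7.29 (Lmod1) to 11.58 (Acta2) and from 6.85 (Sln) to 11.98 (Myl4). All 7 T cell and all 7 B cell markers were above background. At 25 h 7 of 7 T cell markers stood higher in mepenzolate lungs (median 0.19, with 0 called by limma and 2 at an unadjusted p under 0.05), with a summed level of 10.72 to 10.79 against 10.43 to 10.51 in vehicle lungs. Of the B cell markers 5 of 7 stood higher (median 0.12, 0 called, 1 unadjusted), with 11.28 to 11.57 against 10.93 to 11.71. Of all genes tested 4.01% had an unadjusted limma p under 0.05 at 25 h. At 7 h the direction was the other way. There 6 of 7 T cell markers (median -0.12) and 6 of 7 B cell markers (-0.058) stood lower, with 0 called and 0 unadjusted. In lung tissue fewer cells of a type and less RNA per cell cannot be told apart.

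Several members were low together on the same arrays, across treatments and times. On 3 arrays, the first of mepenzolate at 7 h, mepenzolate at 25 h and vehicle at 7 h, the 95th percentile of olfactory receptor genes was 6.11 to 6.12, and on the other 5 it was 6.21 to 6.39, a split that was chosen after these levels were seen. Chrm1, Chrm4, Chrm5 and Slc18a3, 4 of the 10 members, had their 3 lowest values on exactly those 3 arrays. So did 12.2% of all 19937 genes and 20.6% of olfactory receptor genes. Among the 7 members bright enough to test these were Chrm1, Chrm4 and Slc18a3, against 9.8% of all genes tested. Slc18a3 read 6.37 to 6.63 on the 3 arrays and 6.79 to 6.87 on the other 5, Chrm5 5.44 to 5.57 and 5.73 to 5.81, Chrm4 6.42 to 6.56 and 6.61 to 6.76, and Chrm1 7.50 to 7.57 and 7.59 to 7.74. Chat (mean 0.26 lower on the 3 arrays) overlapped between the 3 and the 5, and for Chrm2 the mean was 0.072 higher on them. The 3 arrays carry replicate number 1 and include both treatments and both times. At 7 h each group holds 1 of them, but at 25 h the mepenzolate group holds 1 and the vehicle group 0. The 95th percentiles at 25 h overlapped between the treatments, at 6.12 and 6.29 in mepenzolate and 6.27 and 6.21 in vehicle lungs. The medians of olfactory receptor genes did not overlap there, at 4.38 and 4.45 in mepenzolate and 4.50 and 4.49 in vehicle lungs. Each array was also centred on the median of its olfactory receptor genes, a setting chosen after seeing the data. The 25 h differences (mepenzolate minus vehicle) were then -0.022 in place of -0.097 for Chrm4 and -0.040 in place of -0.11 for Slc18a3. They were -0.13 in place of -0.21 for Ache, -0.18 in place of -0.25 for Chat and 0.43 in place of 0.35 for Chrm2.

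**Figure D2:**
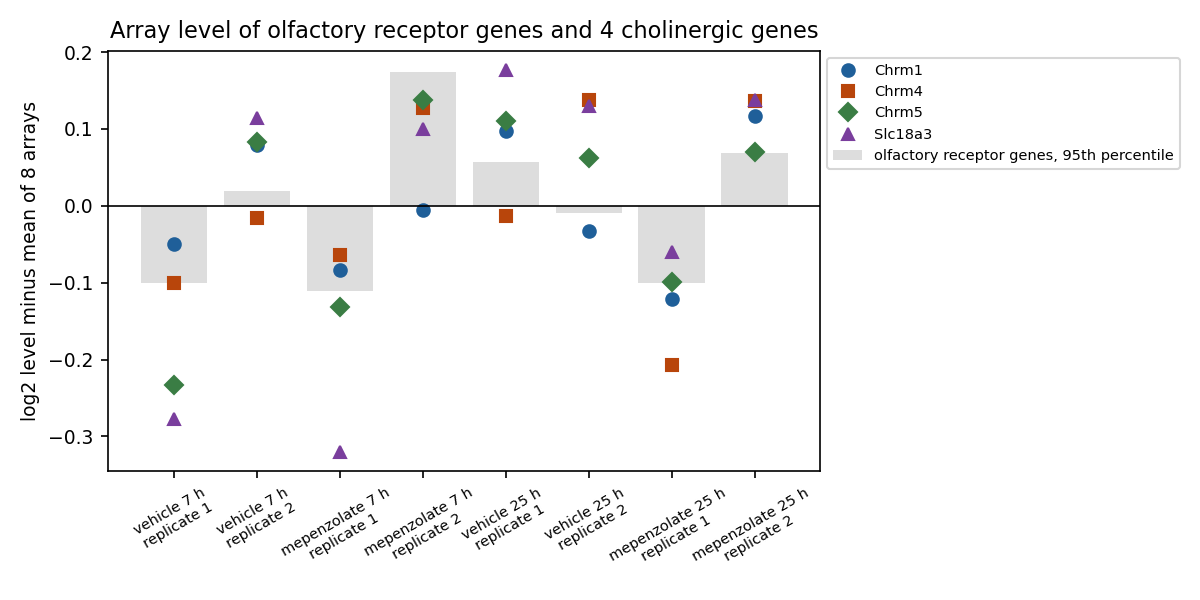
Log2 level minus the mean of the 8 arrays (vertical axis) for each array (horizontal axis); grey bars are the 95th percentile of olfactory receptor genes and symbols are Chrm1, Chrm4, Chrm5 and Slc18a3. The 3 arrays with the lowest bars hold the 3 lowest values of all 4 genes.

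The study profiled these lungs to learn how the drug lowers inflammation and oxidative stress, and the comparison of treated with vehicle lungs is described here for the drug's targets and their transmitter. It was fitted with limma over the 14953 genes bright enough to test, which included 7 members; Chrm5, Chat and Slc5a7 were below that limit (5.93). At 25 h 0 of 7 members passed at an adjusted p of 0.05 (0% of all genes tested), and 2 of 7, Chrm2 and Ache, had an unadjusted p under 0.05 (4.01% of all genes). The members' median difference was -0.035, with 3 of 7 higher, and that of all genes tested was -0.023.

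Chrm2 stood 0.35 ± 0.12 (SE) higher in mepenzolate lungs at 25 h, a 1.28-fold difference, with a 95% interval from 0.085 to 0.62 (limma adjusted p = 0.979). At 7 h it stood at -0.054 ± 0.12 (limma adjusted p = 1.00). The effect at 25 h minus that at 7 h was 0.41 ± 0.16 (limma adjusted p = 1.00), with an interval from 0.028 to 0.79, and it was the only 1 of 7 members with an unadjusted p under 0.05 in that comparison (2.68% of all genes). Without the first mepenzolate array at 25 h the 25 h difference was 0.24 and without the second 0.47. Cardiac markers, 19 of 19 tested, had a summed level of 14.07 to 14.42 in mepenzolate and 14.21 to 14.51 in vehicle lungs at 25 h, and 6 of them stood higher. Smooth muscle markers, 9 of 9 tested, had 12.97 to 13.23 and 12.89 to 13.09, and 6 stood higher. The second vehicle array at 25 h had the lowest Chrm2 level, the lowest smooth muscle marker mean (-0.17) and the highest cardiac marker mean (0.25) of all arrays. The second mepenzolate array at 25 h also had a low smooth muscle marker mean (-0.14). On the first vehicle array at 25 h Chrm2 was nearly as low (9.44 against 9.43). There the smooth muscle marker mean was -0.015 and the cardiac marker mean -0.089. The part of these cell types in the Chrm2 difference was not tested.

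**Figure D3:**
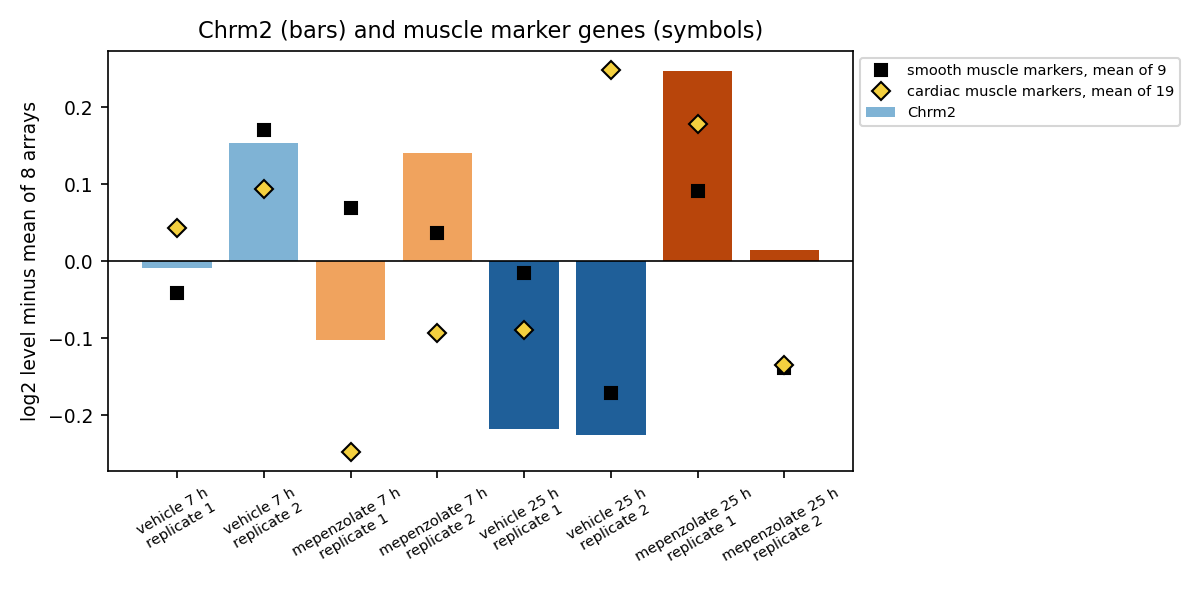
Chrm2 (bars, coloured by group), 9 smooth muscle markers (black squares) and 19 cardiac markers (yellow diamonds) on each array, as log2 level minus the mean of the 8 arrays. Both vehicle arrays at 25 h have low Chrm2 bars, while their cardiac markers lie at -0.09 and 0.25.

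Ache stood at -0.21 ± 0.090 at 25 h (limma adjusted p = 0.979) and at -0.10 ± 0.090 at 7 h (limma adjusted p = 1.00), mepenzolate minus vehicle. Over both times it was -0.16 ± 0.064, a ratio of 0.897 (limma adjusted p = 0.999), with an interval from -0.30 to -0.0098. The 4 mepenzolate and 4 vehicle arrays did not overlap, for which the 2-sided exact permutation test gives p = 0.0286, the smallest it can give. This test was run for each of the 10 members, and its p is not adjusted for that. It shuffled labels over all 8 arrays without keeping the times apart, which allows a smaller p than shuffling within each time. Groups likewise did not overlap for 2.41% of all genes tested, and for 1 of the 10 members. With arrays centred on the olfactory receptor genes the difference over both times was -0.13 (limma adjusted p = 1.00). On every array Ache lay below the 95th percentile of olfactory receptor genes, the limit used for background.

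The other members at 25 h had intervals on both sides of 0. Chrm1 stood at -0.035 (interval -0.27 to 0.21), turning to 0.041 with arrays centred on olfactory receptor genes, Chrm3 at 0.17 (-0.32 to 0.66), Chrm4 at -0.097 (-0.39 to 0.20) and Slc18a3 at -0.11 (-0.50 to 0.27). Chrm3 ranged from 0.044 without the first vehicle array to 0.29 without the second, and Slc18a3 from -0.016 without the first mepenzolate array to -0.21 without the second. Chrm1 and Chrm4 turned to 0.085 and 0.075 without the first mepenzolate array. Bche stood at 0.14 (-0.30 to 0.59), and turned to -0.19 without that array, where it was high. Among the genes below the test limit, the differences were -0.25 for Chat, -0.10 for Chrm5 and -0.0069 for Slc5a7, the last turning to 0.068 with that centring. The 2 groups did not overlap at 25 h for Chrm2, Chrm3, Chat and Ache, 4 of 10 members and 3 of the 7 tested, and for 36.6% of all genes tested.

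At 7 h 0 of 7 members passed limma (0% of all genes), and 0 had an unadjusted p under 0.05 (2.39% of all genes). The largest difference was Bche at 0.16 (interval -0.29 to 0.60), which was 0.017 without the second mepenzolate array. Chrm3 stood at -0.13 (-0.62 to 0.36) and turned to 0.25 without the second vehicle array, where it was high. Chrm1 stood at -0.060, Chrm4 at 0.090 and Slc18a3 at -0.029, and of the genes not tested Chat stood at -0.13, Chrm5 at 0.078 and Slc5a7 at -0.077. Without the second mepenzolate array, which stood apart, the 7 h differences were -0.098 for Chrm1, -0.18 for Chrm2, -0.055 for Chrm3, -0.0052 for Chrm4, -0.15 for Ache and -0.24 for Slc18a3. Of the genes not tested, Chrm5 stood at -0.056, Chat at -0.30 and Slc5a7 at -0.15 without it, so that Chrm4 and Chrm5 changed sign. Groups did not overlap for Ache and Bche, 2 of 10 members, and for 23.7% of all genes tested. Over both times 0 of 7 members passed (0% of all genes) and 1, Ache, had an unadjusted p under 0.05 (3.77% of all genes). The intervals over both times reached from -0.34 (Slc18a3) to 0.46 (Bche).

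**Figure D4:**
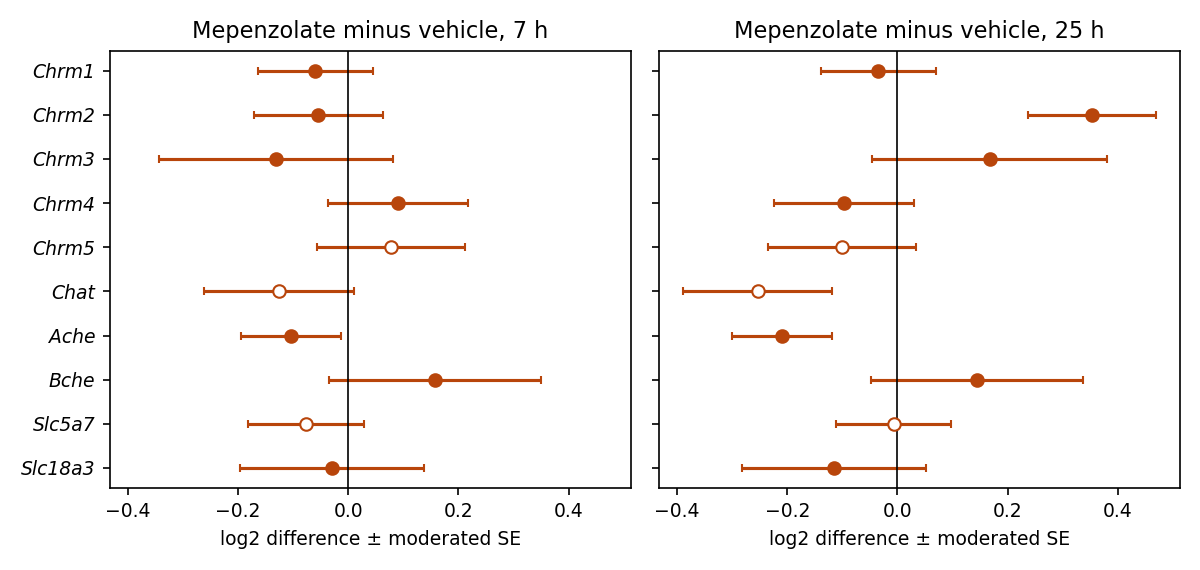
Log2 difference, mepenzolate minus vehicle, for each gene at 7 h (left) and 25 h (right), with 2 arrays per group; bars are moderated standard errors from limma. Open circles are the 3 genes below the test limit, with errors from a fit of all genes; Chrm2 at 25 h (0.35) is the largest difference shown.

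Between the times, 25 h minus 7 h averaged over the treatments, 0 of 7 members passed limma (0.221% of all genes did), 0 had an unadjusted p under 0.05 (8.97% of all genes), and 0 of 10 were free of overlap (6.69% of all genes). Bche stood at 0.24 ± 0.14, Slc18a3 at 0.19 ± 0.12, Chrm3 at -0.18 ± 0.15 and Chrm2 at -0.091 ± 0.082.

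Among the genes around the receptors, a single one passed. Plcb1, a phospholipase C that Gq-coupled receptors such as M1 and M3 activate, read 8.77 and 8.60 in mepenzolate and 8.63 and 8.44 in vehicle lungs at 7 h, and 7.98 and 7.91 in mepenzolate and 7.96 and 7.70 in vehicle lungs at 25 h. It was lower at 25 h on all 4 arrays than on any array at 7 h. The fall was -0.72 ± 0.082 (limma adjusted p = 0.0155). Leaving out single arrays gave -0.79 to -0.66, with 5 of 8 such fits no longer passing: those without either mepenzolate array at 25 h (adjusted p = 0.0635 and 0.117), without the second vehicle array at 25 h (0.0803) and without either vehicle array at 7 h (0.0841 and 0.0562). Of the 17 Gq and phospholipase C genes tested 0 were called higher and 1 lower, and 13 stood lower. Their median was -0.073 against 0.0014 for all genes. An unadjusted limma p under 0.05 was found for 5 of these 17 and for 4 of 19 Gi signalling genes. It was found for 13 of all 93 genes tested around the receptors. Prkca, a protein kinase C gene (-0.44 ± 0.11, adjusted p = 0.184), and the cation channel gene Trpc6 (-0.25 ± 0.060, 0.177) stood lower and Prkcb higher (0.35 ± 0.097, 0.261) without passing, and Trpc6 and Prkcb were chosen after their values were seen. Between the times 8.97% of all genes tested had an unadjusted limma p under 0.05. Cell markers moved between the times too, with 0 called in each list. Of 9 smooth muscle markers 8 stood lower at 25 h (median -0.13, 3 with an unadjusted p under 0.05). All 7 B cell markers (0.57, 6 unadjusted) and all 7 T cell markers (0.22, 5 unadjusted) stood higher. Their part in these values was not tested.

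**Figure D5:**
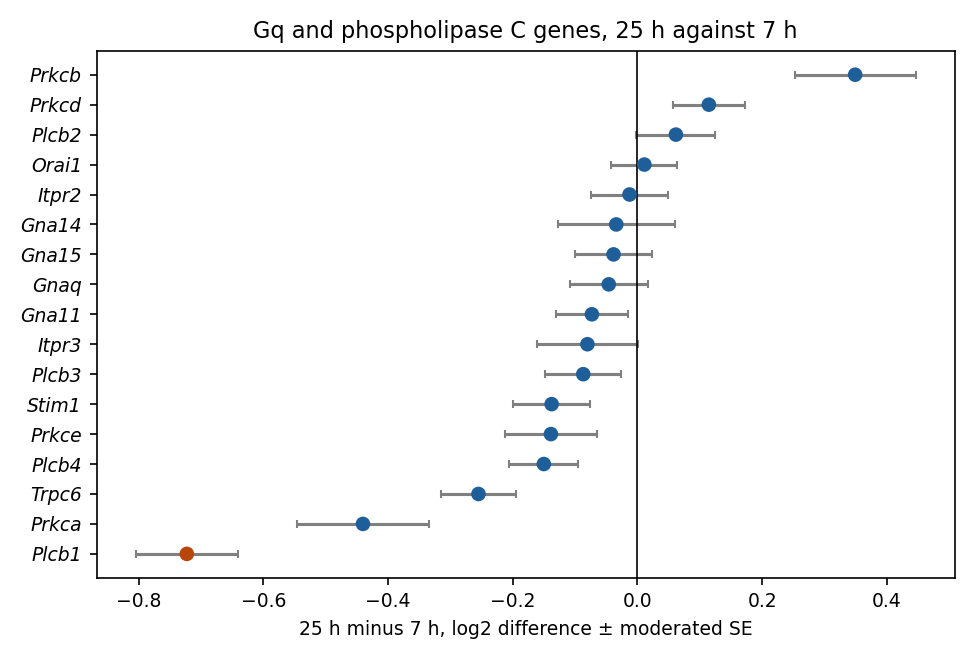
Log2 difference between 25 h and 7 h averaged over both treatments (horizontal axis, with moderated standard error) for 17 genes of Gq and phospholipase C signalling. Plcb1 (orange, -0.72) is the only gene called; the others are blue.

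In the treatment comparisons limma called 0 of the 93 pathway genes tested at 25 h (3 with an unadjusted p under 0.05), 0 at 7 h (0) and 0 over both times (1). Of all genes tested, 4.01%, 2.39% and 3.77% had an unadjusted limma p under 0.05 in these comparisons. The medians of the pathway genes were -0.022, -0.0038 and -0.012, close to those of all genes (-0.023, -0.013 and -0.019). The genes with unadjusted p under 0.05 at 25 h were Myl9, the regulatory light chain of smooth muscle myosin (0.63 ± 0.18), Gna15, a Gq family subunit (-0.25 ± 0.088), and Kcnma1, the large-conductance potassium channel (0.21 ± 0.088), each with limma adjusted p = 0.979. Of 16 nicotinic receptor subunit genes 8 were above background, led by Chrnb1 (7.52). Their list median at 25 h was -0.10 against -0.023 for all genes tested, with 0 called and 0 at an unadjusted p under 0.05. Of the 8 tested 7 stood lower. The muscle subunit gene Chrne (-0.22 ± 0.14) and Chrna4 (-0.17 ± 0.13) led them. Of 19 genes of Gi signalling 17 stood lower at 25 h, led by the adenylyl cyclase gene Adcy8 (-0.24 ± 0.11). Such counts of direction were not tested, and genes read on the same arrays can shift together. The median of the Gi list was -0.053 against -0.023 for all genes tested, with 0 called and 0 at an unadjusted p under 0.05. The mean of this list relative to all arrays was -0.11 on the second mepenzolate array at 25 h, while the first (0.022) lay between the vehicle arrays (-0.0087 and 0.035). Of 12 receptor kinase, arrestin and RGS genes 0 were called at 7 h (0 unadjusted), where Rgs18 (-0.39 ± 0.17) and Rgs4 (-0.29 ± 0.13), which shorten G protein signals, stood lowest. The cholinesterase anchors Colq (8.17, difference -0.14 ± 0.15) and Prima1 (6.48, -0.11 ± 0.12) were above background and not called. Of the choline transporter-like genes, Slc44a2 (10.96) and Slc44a1 (10.55) were bright, and 0 of the 9 choline genes tested were called at 25 h (0 unadjusted).

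The genes most like each member over the 8 arrays were found by Pearson correlation among the genes tested, as a description of arrays that share normalization and the array level described above. Bche was most like Kcnj3 (r = 0.95), a potassium channel subunit that M2 receptors open in the atrium, followed by Scube3 and Tenm3 (both 0.94). Kcnj3 read 8.24 and 7.42 in mepenzolate lungs and 7.69 and 7.83 in vehicle lungs at 25 h, so that it too was highest on the first mepenzolate array. Chrm3 was most like Itpr3 (0.96), an inositol trisphosphate receptor, with Mrpl20 and Mier3 (both 0.94). Chrm2 was most like Pdgfc (0.95), Tmem170 (0.93) and R3hcc1l (0.90), and 3 genes exceeded 0.9 with it. Chrm1 was most like 1700008O03Rik (0.95), Dcdc5 (0.94) and Syt1 (0.93). Chrm4 was most like Nppc (0.99), Hs3st2 (0.97) and Nol12 (0.97), with 70 genes above 0.9. Slc18a3 was most like Lin7b (0.99), Tlx2 (0.98) and Wnt6 (0.98), with 242 genes above 0.9.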

How the data were processed

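Deposited by the authors were log2 values for 34760 probes, made with RMA per the submitters' processing notes, whose version is not given in the sources used here. This method corrects background and equalises arrays, which can understate changes of dim genes, and this was not measured here. Precision is limited by the number of arrays. The platform annotation gave 21640 probes with 1 symbol, and of several probes of a gene the brightest by mean was used (19937 genes). Genes at or above the 25th percentile of mean level entered limma 3.58.1 (R 4.3.3), in which each of the 4 groups had its own mean and all 8 arrays shared the spread (4 residual and 4.09 prior degrees of freedom). Benjamini-Hochberg adjustment ran over 14953 genes. An exact test cannot fall below 0.333 for 2 arrays against 2. The members and gene lists were chosen with earlier results of these data known. Named were all members, list genes that passed or had the largest moderated statistic at 25 h or 7 h, list ends, defining markers and, for each member above background, the 3 genes most correlated with it. In a simulation of the 25 h contrast, run over 14953 genes, 70% of changes of log2 0.5, 98% of 1 and 100% of 2 or 3 were recovered. All sizes were put into the same run, with 50 genes changed for each size. Benjamini-Hochberg adjustment is milder where many genes change, so these shares do not hold for a gene that changes alone. The simulated noise was drawn independently for each gene and array, with the moderated spread of the fit. Deviations that genes of an array share were left out, so recovery on the real arrays may be lower. The lack of calls at 25 h therefore does not show that changes of log2 0.5 are absent. Alternatives were quantile and median scaling, other filters, probe means, a variance trend, a replicate block, the compared groups alone and each array left out.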

Additional observations from a re-analysis of the deposited data

How the results depend on the processing

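With 2 arrays a group the members' calls did not move: 0 members were called in each of the 5 comparisons under every alternative that was run. Signs of small member differences did move. Chrm1 at 25 h turned to 0.041 with centring on olfactory receptor genes, an alternative chosen after seeing the data. Leaving out single arrays gave ranges at 25 h of -0.15 to 0.085 for Chrm1, -0.27 to 0.075 for Chrm4 and -0.19 to 0.48 for Bche, and at 7 h of -0.12 to 0.0043 for Chrm1, -0.18 to 0.067 for Chrm2, -0.51 to 0.25 for Chrm3, -0.0052 to 0.19 for Chrm4 and -0.24 to 0.18 for Slc18a3. The number of members above background was 6, 3 with the 99th percentile of olfactory and 10 with the 95th of vomeronasal receptor genes.

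Over all genes, limma called 0 at 25 h (1 with the replicate block, 0 to 1 with an array left out), 0 at 7 h (0 to 2), 0 over both times (0 to 2) and 0 for the difference between times (1 with centring on olfactory receptor genes, 0 to 3 with an array left out). It called 33 for 25 h against 7 h, against 72 with the stricter filter, 123 with a trend and robust estimation, 73 with the replicate block and 11 to 34 with an array left out. The cause was not tested. Same-numbered replicates deviated together (correlation above 0.1) in 3 of 6 pairs of groups, those among mepenzolate at 7 h, mepenzolate at 25 h and vehicle at 7 h (0.19 to 0.40), and not in the 3 pairs with vehicle at 25 h (-0.021 to 0.027). The labels do not say what a number marks, so a pairing of all groups was not established and the fit without the block was kept. With the replicate block 0 members were called.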
